A study of Arabidopsis thaliana with 6 samples.

Results

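The core circadian clock genes of Arabidopsis thaliana were followed in whole seedlings fed 1 of 2 nitrogen sources. The set holds 10 genes, chosen by locus identifier, of the 33602 genes in the deposited table, and all 10 were found there. They are the morning genes LHY and CCA1, the pseudo-response regulator genes PRR9, PRR7, PRR5 and TOC1, GI, and the evening complex genes ELF3, ELF4 and LUX.

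All 6 libraries came from wild-type seedlings of the Columbia (Col) accession, with no mutation or transgene, as whole seedlings aged 12 days. Agar plates held mineral salts free of nitrogen and 0.5% sucrose, and stood under 16 h of light and 8 h of darkness at 22 °C. All 6 libraries also shared 2 days of cold. The only nitrogen source was 5 mM NH4NO3 in 3 libraries and 5 mM glutamine (Gln) in the other 3. The Gln medium held no NH4NO3, so what Gln does and what the lack of nitrate and ammonium does cannot be told apart. The hour of harvest is not given in the sources used here for either group. Clock transcripts rise and fall within a day, and each library is 1 time point, so a shift in timing and a change in level cannot be told apart.

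The plant clock is a set of genes that repress and activate each other in turn over the day. CCA1 and LHY are related MYB transcription factors whose transcripts peak around dawn and which repress evening genes such as TOC1. The pseudo-response regulators follow in a wave, PRR9 in the morning, then PRR7, PRR5 and TOC1, and each represses CCA1 and LHY. ELF3, ELF4 and LUX form the evening complex, a night-time repressor of PRR9, PRR7, LUX and PIF4 among others. GI, a large protein of the late day, stabilises the F-box protein ZTL, which targets TOC1 and PRR5 for breakdown.

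The region before the gene start was read in 9 of the 10 genes to place the short motifs through which clock proteins meet clock genes. Shown are the 300 bases before the RefSeq gene start (build TAIR10.1), 5′ to 3′ on the strand of the gene. PRR7 and ELF3 are 2 of the genes called lower, and CCA1 and TOC1 are a dawn gene and an evening gene that repress each other. Capitals mark matches to the motifs named after the sequences.
PRR7 (chr5:642031-642330, minus strand): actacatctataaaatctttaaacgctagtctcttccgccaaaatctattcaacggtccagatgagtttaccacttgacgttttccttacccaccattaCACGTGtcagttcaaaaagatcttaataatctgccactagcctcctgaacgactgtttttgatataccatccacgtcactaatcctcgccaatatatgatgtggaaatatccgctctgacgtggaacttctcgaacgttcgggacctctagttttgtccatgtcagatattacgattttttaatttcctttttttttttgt
ELF3 (chr2:11058644-11058943, plus strand): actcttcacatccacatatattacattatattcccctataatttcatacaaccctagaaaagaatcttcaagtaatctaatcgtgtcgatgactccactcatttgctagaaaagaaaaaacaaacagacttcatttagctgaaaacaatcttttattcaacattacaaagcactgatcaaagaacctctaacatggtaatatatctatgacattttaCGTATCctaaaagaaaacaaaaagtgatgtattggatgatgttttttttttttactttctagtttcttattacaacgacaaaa
CCA1 (chr2:19245291-19245590, plus strand): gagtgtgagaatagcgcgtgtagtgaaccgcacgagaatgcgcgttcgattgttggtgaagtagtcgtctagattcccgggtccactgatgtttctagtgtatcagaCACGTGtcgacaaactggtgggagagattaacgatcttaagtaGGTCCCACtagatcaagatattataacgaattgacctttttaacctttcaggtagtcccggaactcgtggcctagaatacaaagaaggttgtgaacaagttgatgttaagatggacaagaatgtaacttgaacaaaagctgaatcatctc
TOC1 (chr5:24674663-24674962, plus strand): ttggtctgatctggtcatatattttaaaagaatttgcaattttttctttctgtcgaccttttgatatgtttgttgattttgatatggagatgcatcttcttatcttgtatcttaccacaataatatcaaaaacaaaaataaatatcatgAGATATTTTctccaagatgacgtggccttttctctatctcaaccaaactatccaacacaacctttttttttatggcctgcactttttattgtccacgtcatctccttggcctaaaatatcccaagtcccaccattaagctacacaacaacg

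Motifs were searched on both strands, and no 2 matches in the printed sequences overlap. The evening element, AAAATATCT, is bound by CCA1, LHY and RVE proteins. It was found before TOC1, at 151 to 143 bases before the start, and before LUX and PRR5, in 3 of 9 genes, and in 2.79% of the 27443 upstream regions of nuclear protein-coding genes. The G-box, CACGTG, was found before LHY, CCA1, PRR9, PRR7 and LUX, in 5 of 9 genes, and in 7.09% of all regions. GATTCG or GATACG, letters bound by LUX, occurred before PRR9 and ELF3, in 2 of 9 genes, and in 14.3% of all regions. The CCA1-binding site AAAAATCT was found before PRR5 alone among the 9 genes, and in 7.94% of all regions. The TCP site GGNCCCAC was found before CCA1 alone, at 150 to 143 bases before the start, and in 1.18% of all regions. CHE, a TCP factor, is known to bind such a site in the CCA1 promoter. The 3 genes that fell shared none of these motifs with each other. The RefSeq model of PRR5 begins at its first coding base, with 0 bases before it, so its window holds transcribed sequence and is not printed. GI had no match in its window.

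Levels are in RPKM, which allows for the deposited length of the gene and the size of the library, so they can be roughly compared between genes. The NH4NO3 libraries held between 28654433 and 31980649 gene reads, and the Gln libraries between 30269306 and 35421727. NH4NO3 replicate 2 stood apart in its read numbers, since 44.9% of its genes with 1 to 100 reads had an even number (95% exact binomial interval 43.7% to 46.1%), against 57.8% to 60.9% in the other 5 libraries. Where leaving it out ended the call of a named gene or moved its log2 fold change by over 1.5 times, that is stated beside the gene. Nothing in the labels says that replicates came from separate plates, so the spread behind the p-values may be technical. Shoot and root marker transcripts both moved between the groups, where 19.8% of all genes tested were called lower and 21.4% higher. Of 7 shoot markers 5 fell in Gln and none rose, and their summed level was 10095 to 11423 RPKM in NH4NO3 and 8379 to 9533 RPKM in Gln. Most of that sum was RBCS1A, which was not called (limma adjusted p = 0.27), nor was GLK1 (0.50). The 6 markers other than RBCS1A summed to 882 to 1062 RPKM in NH4NO3 and 448 to 569 RPKM in Gln, mostly from LHCB2.1. Of 8 root markers 6 rose and none fell, with sums of 57.0 to 64.4 and 97.3 to 117 RPKM. Of the other root markers SCR went the other way but was not called (log2 fold change -0.29, limma adjusted p = 0.066). WOX5 was too low to test, and no marker was without reads in any library. In whole seedlings, fewer cells of a type and less RNA per cell cannot be told apart, and the part of tissue balance in the clock values was not tested.

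Seedlings on Gln had less PRR7, ELF3 and PRR5 transcript and more ELF4 transcript than seedlings on NH4NO3. PRR7 was 33.1% lower, ELF3 25.6% lower and PRR5 16.4% lower, while ELF4 was 58.5% higher. Of 15 alternative fits, the call held in 15 for PRR7, 14 for ELF3 and 13 for ELF4, but in only 6 for PRR5. The dawn gene CCA1 and the evening genes TOC1 and LUX differed by 12.1% or less and were not called. Also not called were GI, 15.2% lower, and PRR9, 26.5% higher with overlapping groups. The other dawn gene, LHY, was 32.1% lower, with overlapping groups and no main test. Of the 10 genes, 9 reached the mean of 1 RPKM needed for the test and LHY did not. By limma, on log2(RPKM + 1) with Benjamini-Hochberg adjustment over 19284 genes, 3 of the 9 fell, 1 rose and 5 were not called at an adjusted p under 0.05. Across all genes tested 41.2% were called, 19.8% lower and 21.4% higher, so 4 of 9 is close to the background and does not set the clock apart. The median log2 fold change (Gln minus NH4NO3) of the 9 genes was -0.12, against -0.02 for all genes tested. Their median absolute change was 0.23, against 0.22.

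**Figure D1:**
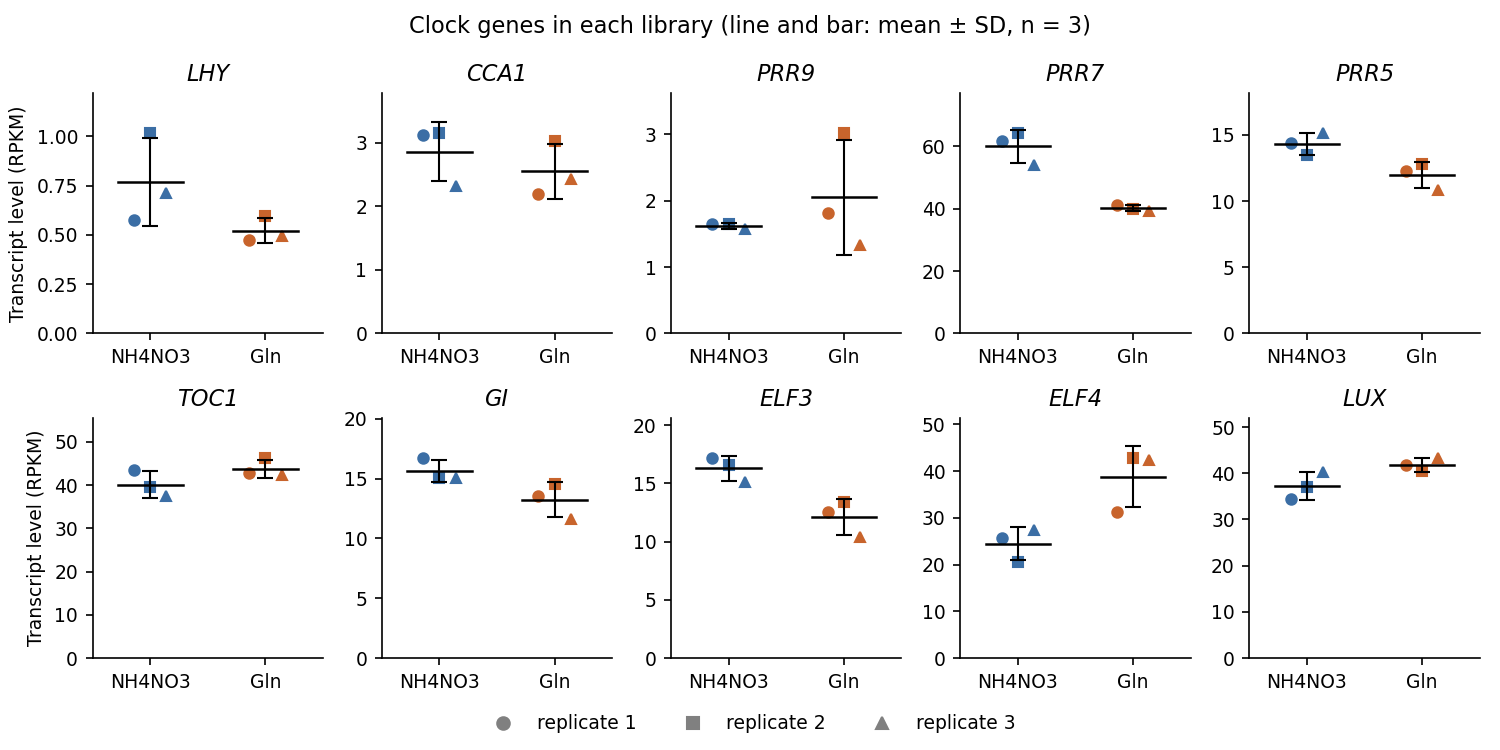
Transcript level in RPKM (vertical axes, from 0) of the 10 clock genes in each library, with the mean ± SD of 3 replicates per nitrogen source. PRR7 lay at 54.1 to 64.1 RPKM in NH4NO3 and 39.3 to 41.1 RPKM in Gln, and ELF4 at 20.5 to 27.3 and 31.2 to 42.8 RPKM.

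LHY and CCA1 ranked 10 and 8 in level among the 10 genes in every library. LHY (AT1G01060, chromosome 1, 33365 to 37871, minus strand) was at 0.576, 1.01 and 0.713 RPKM in NH4NO3 replicates 1 to 3 and at 0.474, 0.595 and 0.496 RPKM in Gln. The highest value was NH4NO3 replicate 2, and the groups overlapped. These values rest on 46 to 103 reads per library, and the 95% exact Poisson interval of NH4NO3 replicate 2, 0.824 to 1.22 RPKM, lay above that of replicate 1, 0.436 to 0.735 RPKM. Such intervals cover counting error only. They take reads as independent counts, which the shares of even read numbers put in doubt, so they may be too narrow. Below the filter, LHY had no main test. In fits with no filter on low values its log2 fold change was -0.21 on log2(RPKM + 1), with a limma adjusted p of 0.24, and -0.51 with voom weights on the reads implied by the table, with an adjusted p of 0.23. On log2(RPKM + 1) the difference was -0.11 without NH4NO3 replicate 2, with no test, and with a pseudocount of 5 it was -0.062.

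CCA1 (AT2G46830, chromosome 2, 19245591 to 19248915, plus strand) was at 3.12, 3.14 and 2.32 RPKM in NH4NO3 and at 2.19, 3.03 and 2.43 RPKM in Gln. The groups overlapped across most of their range. CCA1 had a log2 fold change of -0.12 ± 0.13 (SE), with a 95% interval from -0.42 to 0.18 and a limma adjusted p of 0.49. This interval leaves room for a fall of the size seen in ELF3. The value moved with the libraries used, to -0.066 without NH4NO3 replicate 2, within a range from -0.23 without NH4NO3 replicate 3 to -0.047 without Gln replicate 1, and was not called in any alternative fit.

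Among the pseudo-response regulators, the day genes PRR7 and PRR5 fell, and PRR9 and TOC1 were not called. PRR7 (AT5G02810, chromosome 5, 637681 to 642030, minus strand) had the highest level of the 10 genes in each NH4NO3 library. It was at 61.6, 64.1 and 54.1 RPKM in NH4NO3 and at 41.1, 39.7 and 39.3 RPKM in Gln. The lowest NH4NO3 value exceeded the highest Gln value, and in Gln the gene ranked 3 or 4 of the 10. The log2 fold change of PRR7 was -0.57 ± 0.07 (SE), with a 95% interval from -0.73 to -0.40 and a limma adjusted p of 0.00032, and all alternatives called it, at 7.1e-05 to 0.0078. A larger absolute change was seen in 14.2% of all genes tested.

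PRR5 (AT5G24470, chromosome 5, 8356204 to 8358546, minus strand) was at 14.4, 13.5 and 15.1 RPKM in NH4NO3 and at 12.2, 12.8 and 10.9 RPKM in Gln. The groups did not overlap, but the gap between them was small. PRR5 had a log2 fold change of -0.24 ± 0.08 (SE), with a limma adjusted p of 0.042, which rose to 0.054 without NH4NO3 replicate 2. The call was also lost without NH4NO3 replicate 1 (adjusted p = 0.093) or 3 (0.13) and without Gln replicate 1 (0.061) or 3 (0.13). Adjusted p-values ran from 0.024 to 0.13 over all alternatives.

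PRR9 (AT2G46790, chromosome 2, 19232607 to 19235179, plus strand) was at 1.64, 1.65 and 1.57 RPKM in NH4NO3 and at 1.81, 3.01 and 1.33 RPKM in Gln. Gln replicate 2 was the highest library and Gln replicate 3 the lowest, and the NH4NO3 values lay between. The log2 fold change of PRR9 was 0.18 ± 0.18 (SE; limma adjusted p = 0.45), and -0.03 without Gln replicate 2. The deposited table gives this gene a maximum multi-read ratio of 0.449, which by its name is a share of reads that map to several places, so its level is uncertain. The ratio was 0 for the other 9 genes.

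TOC1 (AT5G61380, chromosome 5, 24674963 to 24678550, plus strand), the evening member of the family, was at 43.4, 39.5 and 37.4 RPKM in NH4NO3 and at 42.7, 46.2 and 42.3 RPKM in Gln. NH4NO3 replicate 1 lay within the Gln range. Its log2 fold change was 0.12 ± 0.07 (SE), with a 95% interval from -0.04 to 0.29 and a limma adjusted p of 0.21. That interval does not reach the size of the change in PRR7 or ELF4.

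GI (AT1G22770, chromosome 1, 8061751 to 8067790, plus strand) was at 16.7, 15.1 and 15.1 RPKM in NH4NO3 and at 13.6, 14.5 and 11.7 RPKM in Gln. All Gln libraries were below all NH4NO3 libraries. Its log2 fold change of -0.23 ± 0.09 (SE) missed the threshold, with a limma adjusted p of 0.072. The gene was called without Gln replicate 2 (log2 fold change -0.29, adjusted p = 0.046), after quantile normalization (0.042) and with voom weights (0.040), between 0.040 and 0.22 for all alternatives.

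The genes of the evening complex did not move together. ELF3 (AT2G25930, chromosome 2, 11058944 to 11063324, plus strand), the scaffold of the complex, was at 17.2, 16.6 and 15.1 RPKM in NH4NO3 and at 12.5, 13.4 and 10.4 RPKM in Gln. Every Gln value was below every NH4NO3 value. Its log2 fold change was -0.40 ± 0.10 (SE), with a limma adjusted p of 0.0089, and the call held without any single library. With no filter on low values the adjusted p was 0.055, the highest of a range from 0.0030 for all alternatives. ELF3 overlaps AT2G25940 on the other strand over 24 bases and an antisense RNA gene over 183 bases, and the library kit does not mark the strand.

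ELF4 (AT2G40080), a small protein that acts with ELF3, was at 25.6, 20.5 and 27.3 RPKM in NH4NO3 and at 31.2, 42.8 and 42.5 RPKM in Gln. The groups did not overlap, and Gln replicate 1 was the closest to NH4NO3. Its log2 fold change was 0.64 ± 0.14 (SE), with a 95% interval from 0.34 to 0.94 and a limma adjusted p of 0.0045. The call held without any single library, but with no filter on low values the adjusted p was 0.060, the highest of a range from 0.00098. A larger absolute change was seen in 11.4% of all genes tested.

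LUX (AT3G46640, PCL1 in RefSeq, chromosome 3, 17183042 to 17186959, plus strand), the DNA-binding member of the complex, was at 34.4, 37.1 and 40.3 RPKM in NH4NO3 and at 41.7, 40.4 and 43.3 RPKM in Gln. The lowest Gln value, 40.4 RPKM, lay just above the highest NH4NO3 value, 40.3 RPKM. Its log2 fold change was 0.16 ± 0.07 (SE), with a limma adjusted p of 0.10. AT3G46650 lies on the other strand over 1507 bases of the RefSeq LUX gene and had a mean of 0.894 RPKM. RefSeq exons of LUX span 3916 bases but its deposited length is 1725 bases, so the overlap may lie outside the part counted. In all, 6 of these 9 genes had groups without overlap, 4 lower and 2 higher in Gln, beside 53.6% of all genes, 27.1% lower and 26.5% higher.

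**Figure D2:**
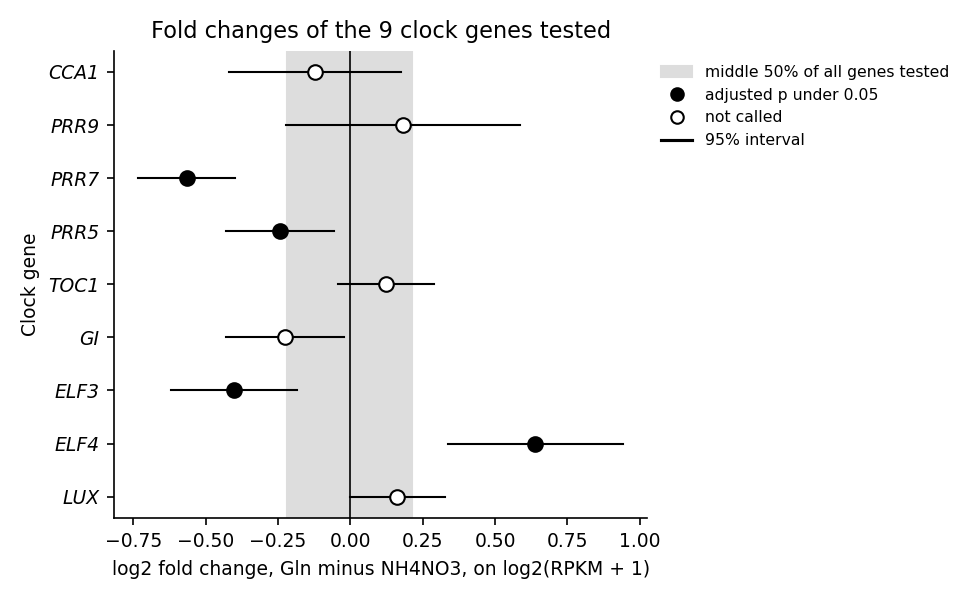
Log2 fold change, Gln minus NH4NO3, of the 9 clock genes tested (horizontal axis, on log2(RPKM + 1)), with 95% intervals and filled points for an adjusted p under 0.05. The grey band holds the middle 50% of all genes tested, and PRR7 at -0.57, ELF3 at -0.40, PRR5 at -0.24, GI at -0.23 and ELF4 at 0.64 lie outside it.

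Ratios of clock genes within a library are free of library scaling. On the log2 scale, the ratio of LHY to TOC1, a dawn gene against an evening gene, was -6.24, -5.28 and -5.71 in NH4NO3 and -6.49, -6.28 and -6.42 in Gln. All 6 values were far below 0, and each Gln library lay below each NH4NO3 library, but by a narrow gap. The nearest values were NH4NO3 replicate 1 and Gln replicate 2, where LHY had only 60 and 70 reads. The 95% exact Poisson intervals of LHY in these 2 libraries, 0.436 to 0.735 and 0.460 to 0.746 RPKM, overlapped almost fully. TOC1 thus exceeded LHY 38.9-fold to 75.4-fold in NH4NO3 and 77.7-fold to 90.1-fold in Gln. The difference of the group medians was -0.70, and -0.44 without NH4NO3 replicate 2.

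The log2 ratio of ELF4 to ELF3, a pair chosen after the values were seen, was 0.58, 0.31 and 0.86 in NH4NO3 and 1.32, 1.67 and 2.03 in Gln. ELF4 thus exceeded ELF3 in every library, 1.24-fold to 1.81-fold in NH4NO3 and 2.49-fold to 4.07-fold in Gln. No test was made of either ratio, and 3 against 3 libraries allow an exact permutation p no lower than 0.10.

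**Figure D3:**
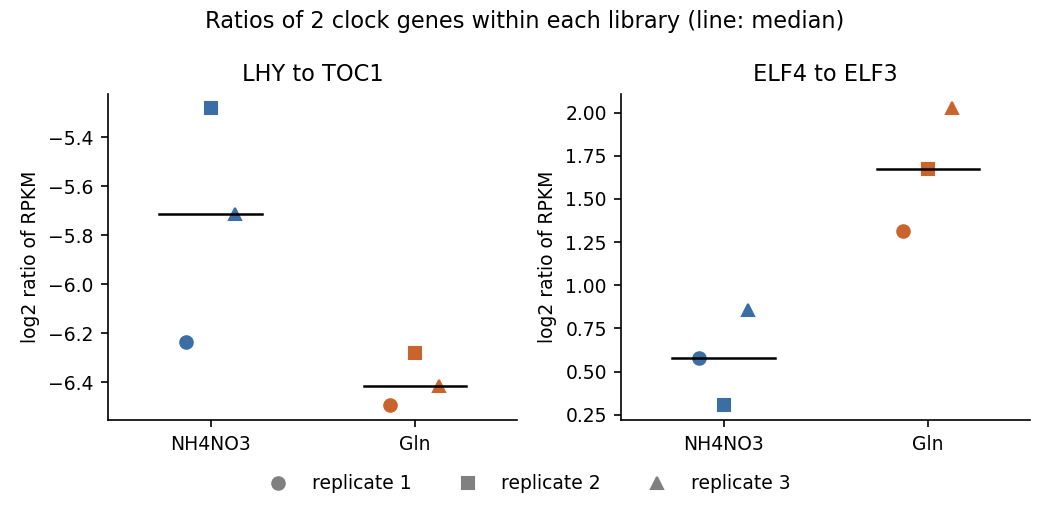
Log2 ratio of RPKM within each library for LHY to TOC1 and for ELF4 to ELF3, with a line at the median of each nitrogen source. The LHY to TOC1 ratio spans -6.24 to -5.28 in NH4NO3 and -6.49 to -6.28 in Gln, and the ELF4 to ELF3 ratio spans 0.31 to 0.86 and 1.32 to 2.03.

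The order of levels was similar in both groups, except between some neighbours. PRR7 lay above TOC1, and ELF3 above GI, in each NH4NO3 library, and the order of each pair was reversed in each Gln library. PRR7, TOC1, LUX and ELF4 held the upper 4 places in every library, with means of 49.99, 41.9, 39.5 and 31.7 RPKM over the 6 libraries, and their ranges overlapped from each gene to the next. GI, ELF3 and PRR5, at 14.4, 14.2 and 13.2 RPKM, also had overlapping ranges. The lowest ELF4 value, 20.5 RPKM, was above the highest GI value, 16.7 RPKM. CCA1 at 2.71 RPKM, PRR9 at 1.84 RPKM and LHY at 0.645 RPKM came last and in that order in 6 of 6 libraries. PRR9 and LHY had the widest relative spread within a group, 42.2% for PRR9 in Gln and 29.3% for LHY in NH4NO3, as SD over mean.

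The transcripts whose profile over the 6 libraries was closest to LHY, by Pearson r of log2(RPKM + 1) among 13974 genes that averaged 5 RPKM or more, were SHL1, AT2G46900, AT2G04790, AT4G28830 and AT3G50790, with r from 0.988 to 0.998. Those closest to TOC1 were AT3G27320, AT4G32160, AT3G07270, AT1G79990 and PHB3, with r from 0.980 to 0.994. With 6 points that share libraries and 2 groups, these values only describe the profiles. No other clock-related gene described here was among them. The core genes themselves and all genes below 5 RPKM were left out beforehand and could not appear, so this absence says little.

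Beyond the core, activators, outputs and light inputs of the clock were examined as lists. Of 61 other clock-related genes, 59 were tested, and 18 fell, 5 rose and 36 were not called. Their called share was 39.0%, against 41.2% of all genes, and their median log2 fold change was -0.09. Without NH4NO3 replicate 2, 13 fell and 5 rose, a share of 30.5%, against 30.6% of all genes in the same fit. In the main fit the counts per list below stand beside 19.8% of all genes called lower and 21.4% higher. Called shares ran from 12.5% of 8 protein stability genes to 60.0% of 15 clock outputs, and no list was tested as a set.

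The RVE and LNK proteins work together in the morning and afternoon to activate evening genes and pseudo-response regulators. Of 8 tested, 3 fell and 1 rose. LNK2 fell from 65.6 ± 5.41 to 37.0 ± 4.33 RPKM (limma log2 fold change -0.81; these and later values are means ± SD of 3 libraries). RVE4, a close relative of RVE8, fell from 61.5 ± 6.13 to 45.1 ± 0.189 RPKM, and LNK4 fell from 25.5 ± 2.68 to 19.1 ± 1.71 RPKM, although with no filter on low values its limma adjusted p was 0.054, the highest of a range from 0.0039. RVE6, in contrast, rose from 5.98 ± 0.305 to 8.05 ± 0.648 RPKM. RVE8 itself was at 2.19 ± 0.264 and 1.67 ± 0.199 RPKM (limma adjusted p = 0.11), and LNK1 at 6.04 ± 0.504 and 5.85 ± 1.39 RPKM (limma adjusted p = 0.77; log2 fold change -0.057, and -0.12 without NH4NO3 replicate 2). LNK1 overlaps AT5G64160, with a mean of 25.2 RPKM, over 245 bases on the other strand.

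Of 3 related RVE genes that act mainly in outputs, 1 was called. RVE7 fell from 21.6 ± 3.49 to 11.2 ± 1.5 RPKM, with a maximum multi-read ratio of 0.452, so its level is uncertain.

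Of 7 relatives of the core genes, 2 rose and 1 fell. EEC, a paralog of ELF3, rose from 5.54 ± 1.08 to 10.9 ± 1.38 RPKM (log2 fold change 0.87), the opposite direction to ELF3. ELF4-L1, a paralog of ELF4, rose from 3.39 ± 0.412 to 6.23 ± 0.931 RPKM. Both overlap a gene on the other strand, EEC over 1512 bases with AT3G21310, at a mean of 0.712 RPKM, and ELF4-L1 over 828 bases with AT2G29960, at 70.8 RPKM, and the part of these neighbours was not tested. PRR3, a pseudo-response regulator that protects TOC1 protein, fell from 7.95 ± 0.375 to 6.52 ± 0.453 RPKM (limma adjusted p = 0.037). This call was lost without any 1 of the 3 NH4NO3 replicates or without Gln replicate 2 or 3, with adjusted p-values from 0.023 to 0.11 over all alternatives.

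Genes that act on the stability of clock proteins were mostly not called. Of 8 tested, DET1, a repressor of light responses, fell from 15.4 ± 0.403 to 10.6 ± 1.46 RPKM, and the other 7 were not called. ZTL, the F-box protein bound by GI, was at 14.9 ± 0.956 and 13.0 ± 0.428 RPKM (limma adjusted p = 0.091, and 0.048 after quantile normalization). FKF1, a blue-light F-box protein of the same family, was at 7.94 ± 0.641 and 9.22 ± 1.15 RPKM (limma adjusted p = 0.16). Of 10 other regulators tested 2 fell. CHE, the TCP factor named above, fell from 88.6 ± 8.25 to 53.3 ± 2.24 RPKM (log2 fold change -0.72), and SKIP, a splicing factor, fell from 57.7 ± 2.54 to 49.4 ± 2.48 RPKM. Leaving out NH4NO3 replicate 2, NH4NO3 replicate 3 or Gln replicate 2 ended the SKIP call, at limma adjusted p-values from 0.0037 to 0.097 over all alternatives.

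Of 8 photoreceptor genes 3 fell and none rose. The blue-light receptor CRY1 fell from 36.6 ± 3.86 to 22.9 ± 0.568 RPKM, the ultraviolet receptor UVR8 from 47.2 ± 0.863 to 39.6 ± 0.910 RPKM and the far-red receptor PHYA from 34.0 ± 2.64 to 28.6 ± 0.506 RPKM. The PHYA call was lost without each library in turn except NH4NO3 replicate 3, at limma adjusted p-values from 0.012 to 0.11 over all alternatives.

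Among 15 genes with clock-controlled transcripts, 7 fell and 2 rose. PIF4 and PIF5, growth-promoting bHLH factors repressed by the evening complex, had the largest falls on the log2(RPKM + 1) scale, which understates changes of low genes such as COL2. PIF4 went from 54.7 ± 5.39 to 26.1 ± 2.49 RPKM (log2 fold change -1.04) and PIF5 from 51.1 ± 3.31 to 26.4 ± 2.1 RPKM (log2 fold change -0.93). GBSS1, a starch synthase, fell from 10.7 ± 0.802 to 5.47 ± 0.523 RPKM. COL2, a relative of CONSTANS, fell from 2.81 ± 0.113 to 1.19 ± 0.197 RPKM, to 0.425 of its NH4NO3 mean, below the 0.477 of PIF4 and the 0.516 of PIF5. In RefSeq, COL2 overlaps genes on the other strand over 771 and 688 bases. Its RefSeq exons span 2256 bases and its deposited length is 1315 bases, so these overlaps may lie outside the part counted. The members that rose, named after their values were seen, were BAM3, a plastid beta-amylase, from 31.3 ± 1.59 to 50.4 ± 3.29 RPKM, and CDF4, a DOF factor, from 2.86 ± 0.495 to 4.91 ± 0.788 RPKM. GRP7, an RNA-binding protein with an evening peak, fell from 2998 ± 155 to 2447 ± 138 RPKM (log2 fold change -0.29, limma adjusted p = 0.040), a direction that turned after quantile normalization (0.14). The GRP7 call was also lost without each library in turn except Gln replicate 3, at adjusted p-values from 0.011 to 0.49 over all alternatives.

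**Figure D4:**
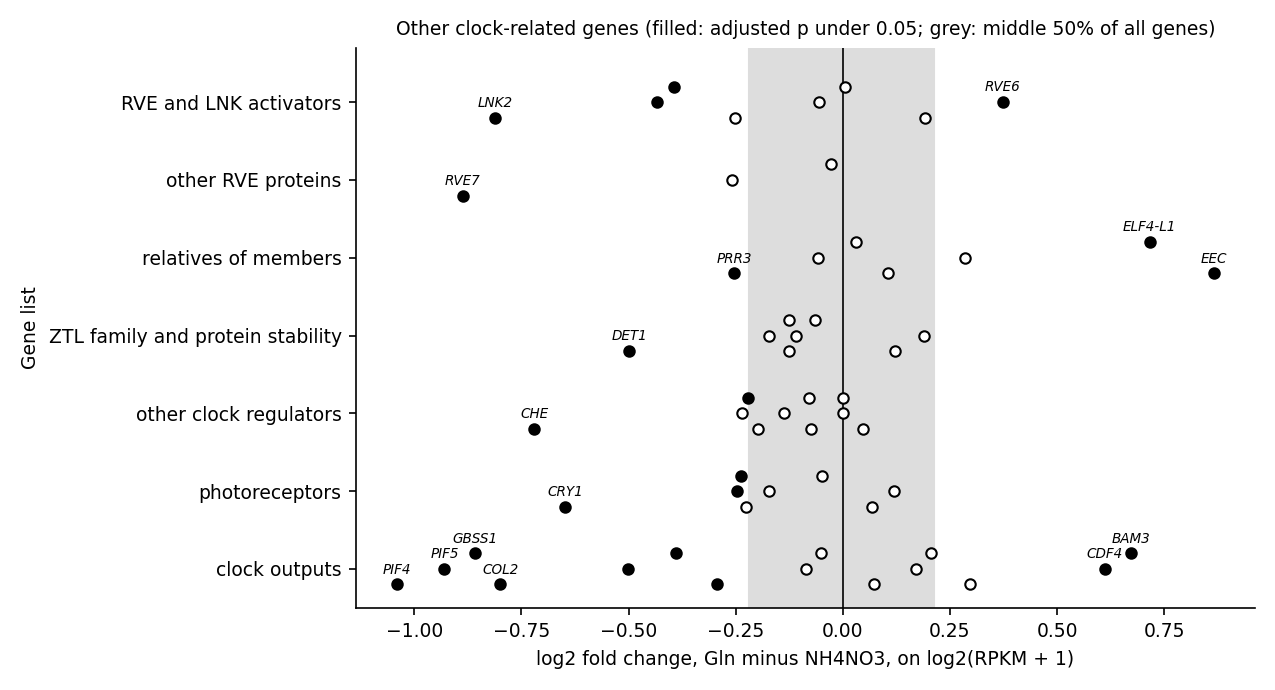
Log2 fold change, Gln minus NH4NO3 (horizontal axis, on log2(RPKM + 1)), of the 59 other clock-related genes tested, by list, with filled points for an adjusted p under 0.05 and a grey band for the middle 50% of all genes tested. PIF4 at -1.04 and EEC at 0.87 are the lowest and highest points.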

How the data were processed

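The authors deposited RPKM values for each gene in each library, with TMM (trimmed mean of M values) library sizes, per the file headers and name. Per the submitters' processing notes, the build was TAIR10 and SAMtools was used; no aligner, counter or annotation release is named there. The deposited gene length is in kilobases, and the deposited maximum multi-read ratio is a fraction from 0 to 1 that the file headers do not define. Multiplying by gene length gave steps of 1 read, offset by 0.5 read, in each library, and between 98.1% and 98.8% of the values of 20 reads or fewer came out whole, with a tolerance of 0.05 read.

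Genes that averaged 1 RPKM or more were tested with limma 3.58.1 (R 4.3.3) on log2(RPKM + 1), a scale that understates changes of low genes, with a mean-variance trend and 2-sided p-values adjusted by Benjamini-Hochberg over all genes tested. No count test was run; voom weights on the implied reads were an alternative. Pairs of libraries within a group differed by at least 7.61 times the counting variance, so none was a copy.

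The members, the lists of related genes and markers and the rule for named genes were chosen with earlier results of these data known. Named were all 10 members, up to 4 called genes per related list with the largest change, and RVE8, PRR3, LNK1, ZTL, FKF1 and GRP7. Positions, overlaps and upstream sequences come from RefSeq TAIR10.1, which matched 32835 of 33602 genes. Its gene models differ in length from those of the deposited table for some genes. Protein sequences were not used here, and 1 upstream region is not reported here.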

Additional observations from a re-analysis of the deposited data

How the results depend on the processing

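PRR7 was called lower under all 15 alternatives tried. With no filter on low values, which tests 33602 genes, 1 of 10 members was called lower and 0 higher, beside 18.0% of all genes: ELF3 (-0.40, adjusted p = 0.055), ELF4 (0.64, 0.060) and PRR5 (-0.24, 0.090) lost their calls. With voom weights and no filter, added after seeing the data, 2 of 10 members were called lower and 0 higher. In that fit 21.2% of all genes were called in either direction, and ELF4 (0.67) and PRR5 (-0.26) lost their calls. PRR5 also lost its call with array weights (-0.20), with the replicate block (-0.24, adjusted p = 0.075) and, without single libraries, at -0.28 to -0.18. GI was called after quantile normalization (-0.26), with voom weights (-0.24) and without Gln replicate 2, in a range of -0.29 to -0.14 without single libraries. LHY moved from -0.21 to -0.46 with a pseudocount of 0.1 and to -0.51 with voom weights and no filter, and shrank to -0.062 with a pseudocount of 5 and -0.11 without NH4NO3 replicate 2. PRR9, never called, ranged from -0.034 to 0.36 without single libraries. With a filter at 5 RPKM, 3 of 45 other clock-related genes were called higher, against 5 of 59, beside 3342 of 13981 genes. ELF4-L1 and CDF4, at means of 4.81 and 3.88 RPKM, lay below that filter and left the test. LNK1, never called, turned to 0.061 with array weights and to 0.083 without Gln replicate 3, and GRP7 turned to 0.14 after quantile normalization. Replicate numbers did not pair the samples: same-numbered deviations correlated at -0.10 to -0.01 over genes. Under the replicate block 2 of 9 members were called lower and 1 higher, beside 37.7% of all genes, and the calls of PRR3 (adjusted p = 0.055), SKIP (0.051) and GRP7 (0.068) were lost. Apart from the genes removed by the filter at 5 RPKM, the cause of these shifts was not tested. LHY, PRR9 and CCA1 rest on 46 to 260 reads per library. In each of them 2 libraries of the same group had 95% exact Poisson intervals that did not overlap. These intervals take reads as independent counts, which the shares of even read numbers put in doubt, so they may be too narrow.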
